A study of Mus musculus with 46 samples.

Results

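Fragment P014 carries the promoter of the mouse gene Ap1m1, and it is described here in every combination in which it was measured. It was selected on 2 measured values, a high activity alone and a weak correlation between the effects that cCREs had on it in the 2 assay layouts, so its activity alone and the relation between the layouts are given as descriptions without a test. All constructs that hold P014 in the Klf2 library of the Upstream assay were taken, together with all constructs of the Downstream assay in which P014 drove the reporter. These are 648 of the 91657 constructs in the tables, 445 of 19789 Klf2 constructs Upstream and 203 of 2364 Downstream. P014 lies at chr8:72239766-72240216 in mm10, with its start and end 450 bp apart. It covers 247 bp before and 203 bp after the lower-coordinate end of Ap1m1, which runs from 72240013 to 72257386 in the RefSeq annotation of GRCm38.p6, the assembly behind mm10.

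Ap1m1 encodes a medium (mu) subunit of the clathrin adaptor complex AP-1, which sorts cargo between the trans-Golgi network and endosomes and is found in most cell types. Promoters of such broadly expressed genes often drive a reporter strongly without any added element. Candidate cis-regulatory elements (cCREs) are stretches of open or marked chromatin that may act as enhancers, which raise transcription from a promoter at a distance, or as silencers, which lower it.

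The cells were E14TG2a, a mouse embryonic stem cell line, cultured in 2i+LIF medium, which holds them in a naive pluripotent state. Per the labels, no genotype or treatment differed between samples. Plasmid libraries were nucleofected and RNA was collected after 24 h, so the fragments were read on transient plasmids and not in their chromosomal setting. P014 was read in 2 groups of 3 biological replicates: complementary DNA (cDNA) of the mixed Klf2, Nanog and negative control Upstream libraries, and cDNA of the mixed Downstream libraries.

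In the Upstream layout 1 fragment, or a pair in either order, sits before the reporter, while in the Downstream layout a cCRE, promoter or control sequence sits behind a reporter driven by P014. Activity sets the barcodes found in reporter RNA against those in the plasmid input, on a linear scale. Plus and minus are the orientations given in the tables. Upstream, 59 cCREs preceded P014 in 152 constructs, 65 cCREs followed it in 179, 19 promoters preceded it in 56 and 20 promoters followed it in 58. Downstream, the P014 vector carried 69 cCREs in 123 constructs, 22 promoters in 40, and 20 control sequences, 15 shuffled and 5 random, in 40. None of these constructs had a replicate at 0, against 512 of all Klf2 Upstream constructs. The number of barcodes or reads per construct was not analysed here, and the precision it gives is unknown. All replicates of a group received the same plasmid pool, so variation between the individual plasmids that carry a construct is not in the errors below. Over cCRE pairs with P014, Pearson's r of the effect between replicates was 0.88 to 0.91 Upstream and 0.98 Downstream, across constructs that share fragments.

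Alone in the Upstream assay, P014 in the plus orientation had activities of 6.53, 6.51 and 5.51 (mean 6.18 ± 0.59, SD, n = 3). In the minus orientation it had 6.03, 6.52 and 5.30 (5.95 ± 0.61). The replicates of the 2 orientations overlapped throughout, and plus exceeded minus by 0.06 ± 0.06 on the log2 scale (SD, n = 3). P014 ranked 6 and 7 among 46 oriented promoter fragments. P022, shared by Smim7 and Tmem38a, was the most active in plus, at 19.8, 19.4 and 16.6, and all 3 of its replicates were above those of P014. P021, the promoter of the Mediator subunit gene Med26, had 8.09, 8.53 and 7.20 in plus and was the next above P014 among plus fragments. In minus, P021 had 6.88, 7.42 and 6.14, a range that overlaps that of P014.

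Of the 11 promoters with a mean activity of at least 1 in either orientation, P014 had the smallest difference between orientations. P021 came next, with a log2 difference of 0.22 ± 0.02 (SD, n = 3). P017, the promoter of the endocytic adaptor gene Eps15l1, differed by 2.68 ± 0.15, and P013 of Fam32a by 3.13 ± 0.57, plus being higher in each. As the vector of the Downstream assay, with nothing added behind the reporter, P014 had activities of 1.29, 1.25 and 1.07 and ranked 5 of 10 promoters. There its replicates overlapped in range with those of P009 of Rab8a (1.25, 1.24 and 1.07) and of P013 (1.27, 1.14 and 0.980), although it was at or above both within each replicate, while P021 (2.58, 2.59 and 2.52) and P022 (4.09, 3.97 and 4.37) were above it in every replicate. How each assay was scaled is not given in the sources used here, so a level Upstream cannot be set against a level Downstream.

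The cCREs themselves were mostly weak alone. Over 165 oriented cCREs the median activity was 0.143, and E007 in plus, at 9.07, 9.31 and 7.57 (mean 8.65 ± 0.94, SD, n = 3), was the 1 cCRE construct above P014. The weak cCREs differed between replicates in level: their medians were 0.122, 0.0617 and 0.249 in replicates 1, 2 and 3, and replicate 3 was above replicate 2 for 162 of 165.

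With a cCRE placed before P014, most constructs did not differ from P014 alone by the test, and both higher and lower calls occurred. Each construct was tested against P014 alone in the same orientation. That baseline is a value P014 was selected on for being high, so the balance of higher and lower differences in this comparison, and in that of promoters before P014, is a description and not a result. Of 152 constructs, 22 (14.5%) passed limma's moderated test at an adjusted p of 0.05, against 16.1% of the 3685 Klf2 pairs of a cCRE and a promoter. Of these, 3 were higher (4.1% of all pairs) and 19 lower (12% of all pairs). The median log2 difference was -0.21 for P014 and -0.28 over all pairs. The share called and the median for P014 were thus near those of all pairs.

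The 22 calls fall to 0 when any 1 replicate is left out. At an unadjusted p under 0.05 there were 43 with all replicates, and 12, 21 and 42 without replicates 1, 2 and 3. With the replicate as a block 41 were called, and with the median cCRE construct of P014 as the baseline 10, of which 3 were higher and 7 lower. All constructs of an orientation share the same 3 baseline values, and fragments alone came from a separate library, so a shift of either enters every difference in this comparison.

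The cCREs with the highest and the lowest constructs before P014 both overlap an annotated gene start, E007 at Zfp617, a zinc finger gene, and E030 at the predicted gene Gm39196. E007 lies at chr8:71922525-71922975 and E030 at chr8:72125819-72126269. Their sequences are shown to let the elements of the highest and the lowest constructs before P014 be compared; each is the 250 bases before the start in RefSeq (GRCm38.p6), which lie within the cCRE, at chr8:71922575-71922824 on the plus strand for Zfp617 and chr8:72125925-72126174 on the minus strand for Gm39196. Capitals mark matches, on either strand, to the motifs searched: the TATA box TATAAA, the CCAAT box, the GC box GGGCGG, the ETS factor motif CCGGAAG, the NRF1 motif GCGCATGCG, the YY1 motif AAGATGGCG, the cyclic AMP response element TGACGTCA, the E-box CACGTG, and the palindrome TCTCGCGAG known from housekeeping promoters.
E007: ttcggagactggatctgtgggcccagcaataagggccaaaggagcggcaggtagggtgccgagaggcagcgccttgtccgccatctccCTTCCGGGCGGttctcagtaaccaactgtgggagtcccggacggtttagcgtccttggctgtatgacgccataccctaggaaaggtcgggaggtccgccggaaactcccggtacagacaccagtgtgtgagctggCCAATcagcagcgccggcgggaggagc
E030: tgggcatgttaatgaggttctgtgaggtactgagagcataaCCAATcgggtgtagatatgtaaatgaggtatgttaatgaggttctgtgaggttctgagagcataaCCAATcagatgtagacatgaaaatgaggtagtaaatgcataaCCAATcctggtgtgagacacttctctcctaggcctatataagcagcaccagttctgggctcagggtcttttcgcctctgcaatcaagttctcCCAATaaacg
The E007 window has 18 CpG dinucleotides and a GC content of 62.8%, and the E030 window 3 and 43.6%. The median over the 32851 RefSeq windows of this length is 6 CpG. E007 holds 1 match to CCAAT (present in 33.8% of all windows), and 1 each to GGGCGG (32.7%) and CCGGAAG (6.91%), the last read on the other strand and overlapping GGGCGG. E030 holds 4 matches to CCAAT and none to the other motifs searched. TATAAA, which neither window holds, is present in 12.4% of all windows. Only exact strings were searched, so a near form such as tatataag, which the E030 window holds, was not marked or counted. The remaining motifs are rarer or as rare, with GCGCATGCG in 1.45%, AAGATGGCG in 0.606%, TGACGTCA in 1.55%, CACGTG in 6.02% and TCTCGCGAG in 0.569%.

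E007 in plus before P014 in minus had activities of 14.2, 16.7 and 11.9, all above those of P014 alone (6.03, 6.52 and 5.30). The difference was 2.39-fold, a log2 difference of 1.25 ± 0.18 (SE; adjusted p = 0.015). Before P014 in plus it had 11.9, 11.9 and 10.4, again above all replicates of P014 alone, with a log2 difference of 0.88 ± 0.14 (adjusted p = 0.018). E097, which overlaps Nwd1 at chr8:72676845-72677295, gave the third higher call. In minus it had 11.98, 13.3 and 9.48 before P014 in minus, 1.93-fold above P014 alone (log2 difference 0.95 ± 0.18; adjusted p = 0.027). Before P014 in plus the same cCRE reached 7.78, 9.52 and 6.81, a log2 difference of 0.37 ± 0.17 that was not called (adjusted p = 0.24). E007 in plus and E097 are among the few cCREs active alone, the latter at 1.31, 0.906 and 0.993 in minus.

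E030 in plus gave the lowest constructs. Before P014 in minus it had activities of 1.61, 1.37 and 1.43, 4.04-fold below P014 alone (log2 difference -2.01 ± 0.14; adjusted p = 0.0064), with no overlap. Before P014 in plus it had 2.74, 2.59 and 2.43, 2.38-fold below (log2 difference -1.25 ± 0.13; adjusted p = 0.0077). E038 in minus, in the blood-cell adaptor gene Hsh2d, had 2.24, 2.73 and 1.74 before P014 in plus, 2.80-fold below (-1.49 ± 0.21; adjusted p = 0.014). E092 in minus, in Nwd1, had 2.56, 2.16 and 1.99 before P014 in minus (-1.41 ± 0.16; adjusted p = 0.0086). E040, in the calcium-binding protein gene Cib3, lowered P014 in both orientations, by -1.09 ± 0.16 in minus and -0.88 ± 0.13 in plus (adjusted p = 0.016 for each). E098 in minus gave -1.06 ± 0.15 before P014 in plus (adjusted p = 0.014). The lowest of these constructs, at a mean activity of 1.47, was still above the median cCRE alone.

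The spread of effects on P014 was small among the promoters Upstream, as it was for other promoters highly active alone. The boost index is the log2 activity of a construct over the median cCRE construct of the same oriented promoter, taken within a replicate. Its SD over cCREs was 0.37 ± 0.01 for P014 in plus and 0.48 ± 0.04 in minus (SD, n = 3 replicates), and these ranked 3 and 8 from the lowest among 44 oriented promoters. In plus, P017 (0.29) and P003 (0.30) were lower, and P022 (0.41) and P021 (0.45) came next after P014, so the trait was not particular to it. Downstream, the SD for P014 was 0.50 ± 0.01, rank 5 of 10 vectors. Weak promoters were at the other end Upstream: the median cCRE construct of P024 of Nwd1 in minus lay at a log2 activity of -3.21 and its boost SD was 1.38. That SD was 1.41, 1.79 and 0.942 in the 3 replicates, at low median activities of 0.0891, 0.0587 and 0.239. Over the 65 oriented cCREs measured before both orientations of P014, the boost indices had a Pearson's r of 0.79 and a Spearman's rho of 0.63, as a description. These constructs share their cCRE and their replicates.

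Behind the reporter, and against the mean control, cCREs raised P014 in some constructs and lowered it in more. Each of 123 constructs was tested against the mean log2 activity of the 40 control constructs of the P014 vector, which corresponds to activities of 1.23, 1.15 and 1.04. Of these, 62 (50.4%) passed the adjusted threshold in limma, against 52.3% of all 1364 Downstream pairs. Among them 23 were higher (37% of all pairs) and 39 lower (15.3% of all pairs). The median log2 difference was -0.08 for P014 and 0.18 over all pairs, and it was the lowest median of the 10 promoters, beside -0.08 for P017. These 2 medians, -0.0834 and -0.0818, differ by less than the 0.0708 by which the highest control alone raises the mean control of P014. The lowest rank therefore depends on that 1 control.

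The split between higher and lower calls moved with the baseline. Against the median cCRE construct of P014 there were 31 higher and 30 lower calls, and against the vector alone 18 higher and 46 lower. The median baseline places as many constructs above it as below within a replicate, so its near even split was built in. Without replicate 2 the calls fell to 34, and with the replicate as a block 103 were called. Controls and cCREs of the P014 vector came from different sub-libraries, so a difference between sub-libraries and a difference between cCREs and controls cannot be told apart. The mean over cCREs minus the mean over controls was -0.03, -0.10 and -0.06 in the 3 replicates (-0.06 ± 0.03), 2 from the lowest of 10 vectors. The highest control alone raises the mean control by 0.0708, which is more than the size of this mean difference.

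The controls themselves varied more than the cCREs did. Their log2 activity spread from -1.26 to 2.76 around their mean with an SD of 0.86 over 40 constructs, against -1.31 to 1.79 with an SD of 0.50 over the cCRE constructs. No cCRE construct (0 of 123) was above the highest control, and 1 was below the lowest. The highest control, the shuffled sequence E6-shuffled1 in minus, had activities of 8.11, 7.26 and 7.75, and in plus the same sequence had 0.555, 0.575 and 0.471. In 6 other promoter vectors the minus construct lay between -0.08 and 0.64 on the log2 scale around the mean control. Without it the mean control falls by 0.0708 and the SD over the other 39 controls is 0.75, and 1 cCRE construct is above all of them. The test of a cCRE against the mean control does not include this spread.

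The highest cCRE construct was E087 in minus, which overlaps the predicted gene Gm51538 at chr8:72590167-72590617. It had activities of 4.72, 3.39 and 3.76, all above the mean control, and was 3.45-fold higher (log2 difference 1.79 ± 0.14, SE; adjusted p = 8.1e-06). E042 in plus, at chr8:72257372-72257822 across the higher-coordinate end of Ap1m1 itself, had 3.02, 2.48 and 2.28 (1.18 ± 0.13; adjusted p = 4.9e-05). E007 and E008 (chr8:71922906-71923356), both at Zfp617, followed in minus with 2.44, 2.36 and 2.22 (1.04 ± 0.11) and 2.34, 2.20 and 2.15 (0.97 ± 0.11). The ends of these fragments overlap, so they share part of their sequence. E080 in plus, in Med26, had 2.41, 2.10 and 1.96 (0.92 ± 0.12; adjusted p = 1.4e-04).

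The lowest was E034 in minus, in the tropomyosin gene Tpm4, with activities of 0.525, 0.452 and 0.406, 2.48-fold below the mean control (-1.31 ± 0.13; adjusted p = 2.3e-05). E081 in Med26 and E015 in the zinc finger gene Zfp961, both in minus, had log2 differences of -1.08 ± 0.12 and -1.07 ± 0.13. E092 in minus and E030 in plus, which also gave low constructs before P014, had -0.95 ± 0.12 and -0.95 ± 0.14. In each of these constructs all replicates were below the mean control.

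The 2 assays were then set side by side, as a description, because P014 was chosen for their weak relation. For P014 in plus, the boost index before the promoter and that downstream of it had a Pearson's r of 0.15 and a Spearman's rho of 0.13 over 78 oriented cCREs. The r was 0.097, 0.17 and 0.16 within replicates 1, 2 and 3. It was the lowest of the 10 promoters in plus, where P022 of Smim7 and Tmem38a came next with 0.39 (n = 64) and P013 was highest with 0.67 (n = 29). For P014 in minus Upstream, against the same Downstream vector, r was 0.41 over 72 cCREs, and ranked 8 of 10. The points share the vector, the replicates and, for a cCRE in both plots, the Downstream value.

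Of 150 pairs measured in both assays, 13 were called in both, which is 59.1% of the 22 Upstream calls and 21.3% of the 61 Downstream calls among them. Among all 150 pairs, 40.7% were called Downstream. Over the other 9 Downstream promoters, 57.7% of 475 Upstream calls were also called Downstream, where 55.6% of all 1663 pairs were called. A Downstream construct counts once with each orientation of P014 Upstream. The 13 involve 9 cCREs, and 12 pairs (92.3%) had the same direction, against 61.7% of the 274 pairs called in both with other promoters, which ranged from 25.9% for P022 to 94.6% for P017. The overlap is a description, and the difference from other promoters was not tested. The share with the same direction also depends on how the calls of each assay split. Over all its constructs, P014 had 19 of 22 calls lower Upstream and 39 of 62 lower Downstream. P017 was mostly lower in both (61 of 66 and 51 of 75). P022 was mostly lower Upstream (55 of 57) and mostly higher Downstream (62 of 70). The splits for P014 rest on the baselines described above, so 92.3% is no measure of agreement between the layouts. The 22 and 61 calls rest on the same replicates as above, and the Upstream calls fall to 0 without any of the 3. E007 in plus was higher in both, by 1.25 and 0.88 before P014 in minus and plus and by 0.36 ± 0.11 downstream (adjusted p = 0.022). E030 in plus was lower in both, by -2.01 and -1.25 Upstream and -0.95 Downstream. E092 in minus (-1.41 and -0.95), E040 in plus (-1.09, -0.88 and -0.78), E098 in minus (-1.06 and -0.47) and E075 in minus (-0.84 and -0.76) were lower in both as well.

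E038 in minus was the exception. Before P014 in plus it lowered activity to 2.24, 2.73 and 1.74, and downstream of P014 it gave 1.86, 1.72 and 1.58, above the mean control in every replicate (log2 difference 0.59 ± 0.12; adjusted p = 0.0016). In plus downstream, E038 lay below the mean control (-0.38 ± 0.12; adjusted p = 0.020). The difference between the assays was not tested, since their baselines differ. E087 in minus, the highest downstream, had 5.21, 5.77 and 4.86 before P014 in plus, a log2 difference of -0.23 ± 0.14 that was not called (adjusted p = 0.37).

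Constructs were far more active with P014 next to the reporter than with the cCRE there. P014 was selected for a high activity alone, and most cCREs were weak alone. The direction of this difference is therefore a description and not a result. With the cCRE first and P014 next to the reporter the median activity was 5.28 over 152 constructs, ranging from 1.47 to 14.3. With P014 first and the cCRE next to the reporter it was 0.870 over 179 constructs, from 0.146 to 9.54. For 105 oriented combinations measured in both orders, 97 (92.4%) were higher with P014 next to the reporter (adjusted p under 0.05 in limma) and 0 lower (1 lower at an unadjusted p under 0.05). Over all Klf2 promoters 49.8% of 2575 combinations were called, 48.6% higher in this sense and 1.2% lower. The median log2 difference was 2.69 for P014 and 1.03 over all. By this median P014 was 2 of 22 promoters, after P021 with 2.96. Among the other promoters with an activity of at least 1 alone in either orientation, the share called was 95.5% for P022, 94.8% for P021, 94.1% for P018, 92% for P003, 89% for P019, 87.2% for P009 and 86.4% for P017, so P014 did not stand apart from these. It was 44.9% for P001, 36.4% for P016 of Klf2 and 27.3% for P013 (22 combinations).

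The gap was wider for P014 in plus, with a median of 3.32 over 51 combinations, than in minus, with 2.31 over 54; this difference was not tested. The widest was with E063 of Eps15l1 in plus. It had activities of 6.24, 7.15 and 6.52 before P014 in plus and 0.136, 0.141 and 0.274 after it, a 38.2-fold difference (log2 difference 5.26 ± 0.32; adjusted p = 2.5e-04). E112 in plus was nearly as wide, at 5.25 ± 0.31. E008 in plus stood at the other end: it had 7.01, 6.84 and 5.89 before P014 in plus and 9.61, 11.01 and 8.01 after it (-0.53 ± 0.20; adjusted p = 0.084).

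Constructs with P014 in front and a cCRE next to the reporter were nevertheless mostly more active than that cCRE alone. This comparison was added after the tables had been read. The constructs also hold P014, which was selected for a high activity alone (means of 6.18 and 5.95). Their median activity of 0.870 was below that. Which fragment the rise comes from was not tested, so its direction is a description. Of 177 constructs with a value for the cCRE alone, 136 (76.8%) were higher and 0 lower in limma, also at an unadjusted p, against 28% called of 3930 such constructs of all promoters, 27.8% higher and 0.204% lower. The median log2 difference was 2.56 for P014 and 0.69 over all, rank 3 of 23 promoters. Among the other promoters with an activity of at least 1 alone in either orientation, P017 (85.4% called) and P022 (84.4%) were above P014. Below it were P003 (63.6%), P021 (62.2%), P019 (58.3%), P018 (44.7%), P009 (13.7%), P013 (6.9%), P001 (2.7%) and P016 (2.1%). The trait was thus not particular to P014. P014 in plus was called higher in 46 of 80 constructs with a median of 2.09, and in minus in 90 of 97 with a median of 2.85. The weak levels of the cCREs alone, which differed between replicates as given above, enter every difference, and without replicate 1 the calls fell to 16.

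E008 in plus rose most in level. Alone it had activities of 0.185, 0.138 and 0.328, and behind P014 in plus 9.61, 11.01 and 8.01 (log2 difference 5.54 ± 0.54, SE; adjusted p = 0.0011), above all replicates of P014 alone. Behind P014 in minus it had 7.93, 9.15 and 7.11. E095 in minus, in Nwd1, went from 0.122, 0.0646 and 0.243 alone to 7.06, 6.61 and 5.26 behind P014 in plus (5.66 ± 0.61). E085 in plus, in Tmem38a, and E031 in plus, in Tpm4, had log2 differences of 5.55 ± 0.67 and 5.29 ± 0.60. At the low end, E030 in minus had 0.805, 0.415 and 0.753 alone and 0.517, 0.414 and 0.493 behind P014 in plus, a log2 difference of -0.42 ± 0.52 that was not called and the 1 construct with a value below 0. E007 in minus, active alone at 1.79, 1.81 and 1.72, had 1.81, 2.31 and 1.65 behind P014 in plus (0.10 ± 0.48, not called).

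Another promoter placed before P014 raised it in some constructs and lowered it in others. The promoters of the higher calls had activities of 2.33 to 18.6 alone, and those of the lower calls 0.123 to 2.08. Of 56 constructs 15 (26.8%) were called, 7 higher and 8 lower, against 41.2% of 1317 promoter pairs of the locus, 29.9% higher and 11.2% lower. The median log2 difference was -0.16 for P014 and 0.18 over all pairs. The calls rest on few replicates: without replicate 1 there were 0 (7 at an unadjusted p under 0.05), without replicate 2 there were 4, and without replicate 3 again 15.

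P022 in plus, the strongest promoter alone, gave 14.7, 18.6 and 12.6 before P014 in minus, 2.55-fold above P014 alone (log2 difference 1.35 ± 0.20, SE; adjusted p = 0.0046), and 12.5, 16.8 and 11.9 before P014 in plus (1.14 ± 0.19; adjusted p = 0.0068). P018, which overlaps 1700030K09Rik and the calreticulin gene Calr3, gave 12.6, 13.1 and 9.78 in minus before P014 in plus (0.93 ± 0.18; adjusted p = 0.010). P021 in plus gave 0.82 ± 0.18 and P017 in plus 0.63 ± 0.19, both before P014 in minus. In the other direction P004 in minus, a promoter of the cytochrome P450 gene Cyp4f18, gave 1.73, 1.35 and 1.51 before P014 in minus, 3.89-fold below (-1.96 ± 0.16; adjusted p = 0.0010), and -1.18 ± 0.14 before P014 in plus. P010 of Hsh2d in minus gave -1.15 ± 0.23 before P014 in minus. P019 of Cherp in plus gave -0.83 ± 0.14 and P007 of the olfactory receptor gene Olfr374 in minus -0.81 ± 0.15, both before P014 in plus. P011 of Cib3 in minus gave -0.80 ± 0.18 before P014 in minus. Across the 56 constructs, which share 19 first fragments and the baseline, the log2 activity of the first promoter alone and the difference had a Pearson's r of 0.60 and a Spearman's rho of 0.52.

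With P014 in front of another promoter, 37 of 58 constructs were higher and 0 lower than the second promoter alone by the same test. Their median log2 difference was 1.24. That is beside 41.2% called of all 1317 promoter pairs, 29.9% higher and 11.2% lower, with a median of 0.18. These constructs also hold P014, selected for a high activity alone. Which promoter the rise comes from was not tested, so its direction is a description. Without replicate 1 the count was 0, with 30 at an unadjusted p under 0.05, and without replicate 2 it was 21. Where the second promoter had an activity under 1 alone, 21 of 32 were called and the median was 2.05. Where it had 1 or more, 16 of 26 were called with a median of 0.80. The largest was P002 of the zinc finger gene Zfp882 in plus, which went from 0.145, 0.109 and 0.282 alone to 11.6, 12.7 and 9.20 behind P014 in plus (6.07 ± 0.39; adjusted p = 7.1e-04). P003 of Zfp961 in plus, itself highly active, had 7.39, 9.27 and 6.34 behind P014 in minus against 9.63, 9.38 and 7.63 alone (-0.22 ± 0.20, not called).

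The activity of a pair was also set against the sum of its fragments alone, as a description. With cCREs that sum is mostly P014 alone, a value P014 was selected on for being high. For a cCRE before P014 the activity lay below the sum of cCRE alone and P014 alone in 124 of 152 constructs, with a median log2 ratio of -0.26 ± 0.06 (SD, n = 3 replicates). For the other promoters in that place it was 91.5% of 3533 constructs and a median of -0.80, beside 81.6% for P014. Many of these promoters are weak alone, and the lowest median was -1.85 for P012. Among the others with an activity of at least 1 alone in either orientation, medians ran from -0.21 for P003 to -0.53 for P013, and -1.08 for P001. P014 did not stand apart from these. For a promoter before P014 it lay below in 48 of 56, with a median of -0.51 ± 0.07, and with other second promoters in 92% of 1261, with a median of -1.05. Here too P014 lay within the range of the other promoters active alone, from -0.39 for P022 to -1.31 for P001. The range ran from -2.08 to 0.71 with cCREs and from -1.99 to 0.47 with promoters, where P018 in minus before P014 in plus was the highest. These values were not tested.

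The orientation of the cCRE had no called effect before P014 and a frequent one behind it. Before P014, 44 comparisons of a cCRE in both orientations were possible, 24 with P014 in plus and 20 in minus. A cCRE compared with both orientations of P014 counts once with each. Of the 44, 0 passed limma's adjusted threshold and 8 passed at an unadjusted p under 0.05, while 1.31% of 1226 passed the adjusted threshold over all promoters. With the replicate as a block it was 0 again, with 18 unadjusted. The median SE of these differences was 0.17 on the log2 scale, so the median 95% interval reached 0.43 to either side. Downstream of P014, 26 of 54 (48.1%) were called, 16 higher in plus and 10 higher in minus, against 41.3% of 612 over all promoters. Without replicate 2 it was 15, and with the replicate as a block 42. The largest difference was in E087, which had 1.12, 0.959 and 0.851 in plus against 4.72, 3.39 and 3.76 in minus (-2.01 ± 0.15, SE; adjusted p = 3.2e-05). E011 of Zfp961 (1.39 ± 0.12), E110 of the corepressor gene Sin3b (1.37 ± 0.12), E080 (1.31 ± 0.12) and E018 (1.27 ± 0.10) were higher in plus. The 20 control sequences measured in both orientations differed by a median of 0.54 in absolute log2 value, and the 54 cCREs by 0.32.

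Whether a cCRE acted on P014 as on other promoters was asked by setting its boost index with P014 against its mean boost index with the other promoters, within each replicate. Upstream, 0 of 152 differences passed the adjusted threshold in limma, as did 0% of 3648 over all promoters, while 35 passed at an unadjusted p under 0.05. Without the replicate block it was 0 for P014 too, with 46 unadjusted. The largest were those of E007 in plus, at -1.62 ± 0.30 with P014 in plus (adjusted p = 0.14). Downstream, 95 of 123 (77.2%) passed, 38 higher (30.1% over all promoters) and 57 lower (38.8%), against 68.8% of 1341 over all promoters. The median difference was -0.06 for P014 and -0.02 over all.

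E080 in plus showed the largest Downstream difference. Its boost index with P014 was 1.00, 0.997 and 1.00 in the 3 replicates, and its mean over other promoters -0.21 ± 0.04 (SD, n = 3), a difference of 1.21 ± 0.02 (SE; adjusted p = 1.5e-04). E087 in minus had 1.87 ± 0.16 with P014 and 0.88 ± 0.05 with others. E038 in minus had 0.68 ± 0.04 with P014 and -0.25 ± 0.03 with others, and E042 in plus 1.26 ± 0.06 and 0.37 ± 0.02. E073 in plus, at Calr3, had 0.83 ± 0.06 and 0.01 ± 0.04. All were higher with P014 in 3 of 3 replicates. Before P014, E080 in plus had log2 differences from P014 alone of -0.41 ± 0.15 and -0.56 ± 0.19 in plus and minus, neither called. The error of these differences is that between replicates of 1 plasmid pool, while the controls of the same vector had an SD of 0.86 between sequences. The other promoters enter as 1 mean per replicate, so the spread between them is in neither the errors nor the p. A called difference is thus from that mean and not from the range of the other promoters.

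By their boost indices over shared oriented cCREs, the promoters most like P014 in plus Upstream were P021 in minus (r = 0.83, n = 79), P009 of Rab8a in minus (0.79, n = 72) and P013 in plus (0.78, n = 29), and P007 in plus was least like it (0.30, n = 72). For P014 in minus these were P021 in minus (0.88, n = 73), P021 in plus (0.83, n = 66) and P017 in plus (0.83, n = 73), with P011 in plus the least (0.34, n = 49). Downstream they were P017 (0.77, n = 123), P021 (0.70, n = 119) and P013 (0.70, n = 123), and P001 of Zfp882 was least like it (0.58, n = 123). These correlations are descriptions over cCREs that share replicates, and the least like promoters Upstream are weak ones.

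The cCREs nearest to P014 in the genome had called constructs in both directions. Of the 10 within 50 kb, 9 were measured before P014, in 23 constructs of which 5 were called (14.5% of all cCREs before P014), with log2 differences from -1.49 to 0.08. Downstream, 8 of 16 constructs of all 10 were called, from -0.78 to 1.18, beside 50.4% of all cCREs behind P014, so the nearest cCREs did not stand apart in this count. The called ones Upstream were E038 and E040, described above, and E050, in the predicted gene Gm39197, with -0.83 ± 0.15 and -0.77 ± 0.16 before P014 in minus. Downstream they were E042 and both orientations of E038, and E040, E037 in minus (-0.73 ± 0.14), E039 in minus (0.45 ± 0.12), E046 in minus (0.33 ± 0.12) and E050 in minus (-0.52 ± 0.12). E041, E044 and E048 had no called construct in either assay. Over all cCREs, whose distance from P014 ran from 17.6 to 519 kb, log10 distance and boost index had a Pearson's r of 0.18 and 0.15 Upstream (P014 in plus, n = 79, and minus, n = 73) and -0.08 Downstream (n = 123).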

How the data were processed

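Activities were used as the authors deposited them. Per the file headers they are given per biological replicate on a linear scale, and per the labels they relate cDNA barcodes to plasmid DNA (pDNA) barcodes, so each is a ratio. Bowtie2 and the build mm10 are named in the submitters' processing notes, without a version or a role. How barcodes were counted, filtered and scaled is not given in the sources used here. The 6 cDNA samples of 2 groups were grouped by their titles. A further table repeats activities in 9 columns that were not used.

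A construct with any replicate at 0 was dropped. Tests on log2 activities used lmFit and eBayes of limma 3.58.1 under R 4.3.3 (moderated, 3 against 3, two-sided), with Benjamini-Hochberg adjustment over all Klf2 or all Downstream constructs of a comparison at 0.05. Intervals have a level of 95%. Replicate numbers pair the values, because, per the column names and the titles, values of 1 number come from the same cDNA sample. The main tests have no replicate block, except the comparison with other promoters, which is a difference within replicates over at least 3 other promoters. For the alternatives, each replicate was left out, a pseudocount of 0.01 was added, constructs under an activity of 0.1 were left out, and other baselines and the block were used. The main fits, except that of P014 before a cCRE, were tested on simulated data. In the simulations of 3 against 3 each construct had its own baseline noise, so a baseline shared between constructs was not covered.

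P014 and the lists were chosen with earlier results of these data known. Within each assay, the cCREs named were those with the 5 largest called differences in each direction, those called in both assays (up to 5 per direction), the 5 that differ most from other promoters, those within 50 kb, the 3 most like promoters and the least like, and the 5 partner promoters with the largest differences either way. Examples of the order of fragments, of P014 in front and of controls were chosen after their values were seen. RefSeq promoter sequences were matched by symbol and position for 2 cCREs. The promoter of Ap1m1 is named only. Python 3.11.15 and pandas 2.3.3 were used.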

Additional observations from a re-analysis of the deposited data

Results flagged for a closer look

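Effects that differed between promoters are listed here as values, by the test of the difference within replicates given in the report. Downstream of P014, E080 in plus exceeded its mean boost index with the other promoters by 1.21 on the log2 scale, E087 in minus by 0.99, E038 in minus by 0.92, E042 in plus by 0.90 and E073 in plus by 0.82, each in 3 of 3 replicates. Over all promoters 68.8% of such differences passed the threshold. The spread between the other promoters is not in the error of this test. E038 in minus moved P014 in opposite directions in the 2 assays: -1.49 on the log2 scale before P014 in plus, with all 3 replicates below P014 alone, and 0.59 downstream of it, with all 3 replicates above the mean control. That difference between the assays was not tested.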

How the results depend on the processing

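With the replicate as a block, 41 in place of 22 constructs with a cCRE before P014 were called, 103 in place of 62 downstream and 42 in place of 26 for the orientation downstream. The block did not move the other counts of calls by over 1.5 times. Leaving out 1 replicate gave 0 calls for cCREs before P014, 34 to 65 downstream, 15 to 29 for orientation downstream, 0 to 15 for promoters before P014 and 16 to 153 for P014 before a cCRE. With the median construct as the baseline, 10 cCREs before P014 were called. The correlation between the assays for P014 in plus was 0.0968 in replicate 1, against 0.15 for the mean. The counts for the order of fragments, the cCRE orientation Upstream and the comparisons with other promoters stayed within 1.5 times of their main value under every alternative tried, leaving out replicates included (81 to 91 for the order). Of 46 named pairs, 0 changed direction, and 16, 15 and 8 were no longer called without replicates 1, 2 and 3. No construct with P014 had a replicate at 0, so the pseudocount acts through the other values. The depth behind each value is unknown, and the controls' spread between sequences is not part of the errors.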

Other observations

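As an insert behind the reporter, P014 was itself measured with all 10 promoter vectors. In plus it lay above the mean control in 10 of 10 vectors, by 0.29 to 0.95 on the log2 scale with a median of 0.63. In minus it lay above in 9 of 10, from -0.05 to 0.72 with a median of 0.35. Behind the reporter driven by P001 of Zfp882, the weakest vector, P014 in plus gave activities of 0.297, 0.363 and 0.345, which is 0.95 ± 0.18 over the mean control (SD, n = 3). Behind its own copy it gave 1.62, 1.35 and 1.22 in plus (0.29 ± 0.09) and 1.32, 1.02 and 0.977 in minus (-0.05 ± 0.13). In the vector without a promoter it gave 0.272, 0.393 and 0.286 in plus, 1.60 ± 0.17 over the controls of that vector, and 1.37 ± 0.14 in minus. The controls come from another sub-library in the P014 vector, and per the labels every vector has a negative control library of its own. The mean over cCREs also lay above the mean control in every vector but those of P014 (-0.06) and P017 (-0.12), up to 0.65 in that of P001. The P001 vector has 10 control constructs, against 32 to 40 in the other promoter vectors, so its values of 0.65 and 0.95 rest on few controls. A position above the controls is thus not particular to P014 as an insert. None of these values was tested.

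The control sequences at either end of the range with P014 had other values with other promoters. E6-shuffled1 in minus was 2.76 above the mean control of the P014 vector, the highest of 40, and -0.05 with P018. The same sequence in plus was -1.10 with P014 and 1.56 with P018 (P014 rank 38 and P018 rank 1 of 40), and between -1.23 and -0.73 with the 7 other vectors that held it. E27-shuffled1 in minus was the lowest control with P014, at -1.26, and ranged from -1.06 with P013 to 0.78 with P009 over 8 other vectors. The SD over replicates was 0.12 for E6-shuffled1 in minus with P014 and 0.03 for it in plus with P018, but 0.44 for E27-shuffled1 in minus with P009 (activities of 1.41, 1.51 and 0.780).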
